A study of Mus musculus with 8 samples.

Results

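The 10 genes described here encode matricellular and wound matrix proteins. They are the tenascins Tnc, Tnn and Tnxb, the thrombospondins Thbs1 and Thbs2, osteopontin (Spp1), osteonectin (Sparc), the fasciclin-domain proteins Postn and Tgfbi, and fibronectin (Fn1). The genes were listed by name, with earlier results of these data known. All 10 were found among the 23143 named genes of the count files. Each gene was read from the RefSeq transcript row with the largest total count, and all 10 passed the filter on low counts that left 16341 genes to test. Total RNA had been sequenced from epidermis that was separated from the dermis of mouse embryos, in 8 libraries. There were 2 libraries each of Nir knockout and control epidermis at E17.5, and 2 of each at E15.5, where E stands for the embryonic day. The knockout embryos carried the floxed Nir allele and Krt14-Cre, which acts in basal keratinocytes and their descendants, while the controls carried the floxed allele. Nir is another name of Noc2l, an inhibitor of histone acetyltransferases. The labels do not say whether the 2 libraries of a group came from separate embryos, and the spread behind each p-value may therefore be technical.

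Matricellular proteins are secreted into the extracellular matrix but act mainly as signals and adaptors rather than as load-bearing fibres. They bind collagens, growth factors and cell-surface integrins and syndecans, and so set how firmly cells adhere, spread and migrate. In skin most of them are made by dermal fibroblasts, by perivascular cells and by macrophages. They are low in resting adult tissue and are known to be high in embryonic mesenchyme, at wound edges and in scars. Fibronectin is a structural glycoprotein of the provisional matrix that fills a wound, and it is the surface on which several of the others assemble.

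All 10 genes rose in the knockout at both stages (edgeR quasi-likelihood test, Benjamini-Hochberg adjusted over 16341 genes, threshold 0.05). At E17.5 the log2 fold changes ran from 1.27 to 5.65 with a median of 1.82, where 26.7% of all tested genes rose and 26.7% fell. At E15.5 they ran from 0.58 to 4.15 with a median of 1.28, where 23.2% of all tested genes rose and 22.3% fell. The median over all tested genes was -0.02 at E17.5 and -0.01 at E15.5. Because the list was chosen with earlier results known, these shares give a scale and are not a test of the list. The largest changes were those of Tnn and Spp1, which were low in control epidermis, and of Tnc. In total the 10 genes took 1.74 and 1.78% of the counts on named genes in E17.5 knockout libraries, against 0.633 and 0.71% in E17.5 controls. At E15.5 they took 1.44 and 1.35% in knockout libraries and 0.611 and 0.566% in controls.

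The libraries held 25225990 to 28895282 counts on named genes. Levels are given as CPM, depth-scaled counts for which each library total was multiplied by its TMM normalization factor. Counts over the whole Noc2l transcript do not separate the floxed exons, which the labels do not name, so they do not check the genotype. Noc2l was at 85.4 and 86.9 CPM in E17.5 knockout and 105 and 121 CPM in E17.5 control libraries (log2 fold change -0.39 ± 0.10 SE, edgeR adjusted p = 0.00621). At E15.5 it was at 95.6 and 91.6 CPM in knockout and 107 and 97.4 CPM in control libraries (-0.12 ± 0.10, adjusted p = 0.335). The epidermal label was checked against marker genes. Of 14 basal keratinocyte markers, 13 fell at each stage, and their summed level was 1661 and 1626 CPM in E17.5 knockout libraries against 8528 and 8562 CPM in E17.5 controls. All 11 suprabasal keratinocyte markers fell at both stages. Markers of dermal cells were present at high levels in every library, control libraries included, although the tissue is given as epidermis separated from the dermis. Skeletal muscle markers summed to 35954 and 26650 CPM in E17.5 knockout libraries, against 13358 and 12197 CPM in E17.5 controls. At E15.5 they summed to 18223 and 17184 CPM in knockout libraries, against 12831 and 9775 CPM in controls.

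Fibroblast markers moved with the matricellular genes. Of 14 dermal fibroblast markers, none of which is among the 10 genes, 13 rose at E17.5 (median log2 fold change 1.33) and 14 rose at E15.5 (median 1.15). Their summed level was 101300.0 and 107040.0 CPM in E17.5 knockout libraries against 28390.4 and 32798 CPM in E17.5 controls. At E15.5 it was 98998 and 80135 CPM in knockout libraries against 32647 and 34679 CPM in controls. On the log2 scale the changes of the 14 markers ran from 0.32 to 2.00 at E17.5 and from 0.66 to 1.56 at E15.5. Among them, Fbn1, the fibrillin of elastic microfibrils, rose by 1.795 at E17.5 and by 1.56, the largest value, at E15.5. Macrophage markers rose as well, 11 of 11 at each stage, with medians of 1.93 at E17.5 and 1.17 at E15.5. Each library is a mixture, so a larger share of cells of a type and more RNA of a gene per cell cannot be told apart. The fold changes are therefore also given relative to the fibroblast markers.

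The promoters of the 3 genes that changed most are shown first, because they are the genes that moved beyond the fibroblast markers at both stages. The sequences are RefSeq's for GRCm38.p6, the assembly that mm10 denotes, and run 5′ to 3′ on the gene's own strand up to the start of the annotated gene. Capitals mark matches to 4 motifs, each searched on both strands. The TATA box was searched as TATAAA, the site of AP-1 factors as TGANTCA, that of RUNX factors as TGTGGT and that of TEAD factors as GGAATG, and no match overlapped another. For Tnn the 133 bases at chr1:160153693-160153825, minus strand, are shown.
Tnn: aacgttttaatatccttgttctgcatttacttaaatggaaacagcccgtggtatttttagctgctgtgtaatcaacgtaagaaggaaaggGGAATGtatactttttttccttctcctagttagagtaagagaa
For Spp1 the 250 bases at chr5:104434861-104435110, plus strand, are shown.
Spp1: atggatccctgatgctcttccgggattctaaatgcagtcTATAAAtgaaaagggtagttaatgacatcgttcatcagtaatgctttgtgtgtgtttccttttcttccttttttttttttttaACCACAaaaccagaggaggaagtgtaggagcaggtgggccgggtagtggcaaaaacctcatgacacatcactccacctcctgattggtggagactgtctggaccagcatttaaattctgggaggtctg
For Tnc the 250 bases at chr4:64047016-64047265, minus strand, are shown.
Tnc: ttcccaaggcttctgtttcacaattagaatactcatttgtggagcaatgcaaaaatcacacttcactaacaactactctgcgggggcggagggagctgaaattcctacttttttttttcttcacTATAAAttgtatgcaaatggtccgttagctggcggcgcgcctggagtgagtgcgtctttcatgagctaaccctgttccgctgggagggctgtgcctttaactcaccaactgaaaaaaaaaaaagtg
Spp1 held a TATA match 211 to 206 bases before its start and a RUNX match, read on the other strand as ACCACA, 128 to 123 bases before it. Tnc held a TATA match 126 to 121 bases before its start. The same match lay 205 to 200 bases before another RefSeq start site of Tnc, which lies within the annotated gene. Whether it acts at either start was not tested. Tnn held a TEAD match 160 to 155 bases before a RefSeq start site that lies within the annotated gene. Entries matched 8 of the 10 genes, all but Fn1 and Thbs1. Elsewhere a TATA match lay 26 to 21 bases before a Postn start site that lies within the annotated gene. For Thbs2 a TATA match, read on the other strand as TTTATA, lay 126 to 121 bases before its start. An AP-1 match, TGAGTCA, lay 55 to 49 bases before a Tnxb start site that lies within the annotated gene. Over 32851 windows of 250 bases, 12.4% held the TATA motif, 6.7% that of AP-1 and 12.6% that of TEAD, and 4614 windows held that of RUNX, so such matches are common and are given as a description.

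The tenascins are large, multi-armed glycoproteins that loosen cell adhesion to fibronectin. Tnc (chr4:63959785-64047015) encodes tenascin-C, which is known from embryonic mesenchyme, tendon and healing wounds. It was at 1563 and 1629 CPM in E17.5 knockout libraries, against 140.1 and 137 CPM in E17.5 controls. The E15.5 knockout libraries had 667 and 513 CPM, and the E15.5 controls 127 and 106 CPM. All 4 knockout libraries lay above all 4 control libraries, and both E17.5 knockout libraries lay above both E15.5 ones. How many of all tested genes separate in this way was not counted. A lack of overlap, here and below, is therefore a description. The log2 fold change was 3.53 ± 0.16 (SE) at E17.5, an 11.5-fold difference (adjusted p = 1.42e-08), and 2.34 ± 0.15 at E15.5, a 5.05-fold difference (adjusted p = 3.80e-07). Exons of Tnc share 176 bases with an antisense transcript, and the strand setting of the counting is not given.

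Tnn (chr1:160085029-160153692) encodes tenascin-N, also called tenascin-W, which is found in developing bone and in the stroma of tumours. It had 4124 and 4268 counts in E17.5 knockout libraries (151 and 153 CPM), against 90 and 87 counts in E17.5 controls (3.26 and 2.79 CPM). At E15.5 it had 753 and 426 counts in knockout libraries (27.9 and 14.98 CPM), against 36 and 27 counts in controls (1.36 and 1.04 CPM). The groups did not overlap at either stage, and the E15.5 knockout libraries differed from each other by a ratio of 1.86. The difference amounted to 50.2-fold at E17.5 (log2 5.65 ± 0.27, adjusted p = 2.19e-08) and 17.8-fold at E15.5 (4.15 ± 0.30, adjusted p = 9.65e-07). The neighbouring tenascin gene Tnr, tenascin-R of the nervous system, lies at chr1:159523729-159931729 and was under the filter, with 8 and 4 counts in E17.5 knockout libraries and 6 and 1 in E17.5 controls. At E15.5 Tnr had 10 and 12 counts in knockout libraries and 2 and 1 in controls. Tnr is named for its position and was picked after its values were seen.

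Tnxb (chr17:34660453-34719815) encodes tenascin-X, which binds collagen fibrils in the dermis and whose loss in humans causes a form of Ehlers-Danlos syndrome. It was at 802 and 554 CPM in E17.5 knockout libraries, against 153 and 159.9 CPM in E17.5 controls. In E15.5 knockout libraries it was at 357 and 211 CPM, and in E15.5 controls at 154 and 100.03 CPM. The groups did not overlap at either stage, and the replicates of a group differed by ratios of 1.45 to 1.69, except for 1.05 among the E17.5 controls. The log2 fold change was 2.12 ± 0.26 at E17.5 (adjusted p = 4.48e-05) and 1.16 ± 0.26 at E15.5 (adjusted p = 0.00339). In the E15.5 knockout library with the higher Tnn and Tnxb, the cartilage collagen gene Col2a1 was at 34.5 CPM, against 0.91 CPM in the other one. Col2a1 was picked after its values were seen, and its part in the tenascin values was not tested. Without replicate 1 of the E15.5 knockout the E15.5 change was 3.63 for Tnn and 0.72 for Tnxb.

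**Figure D1:**
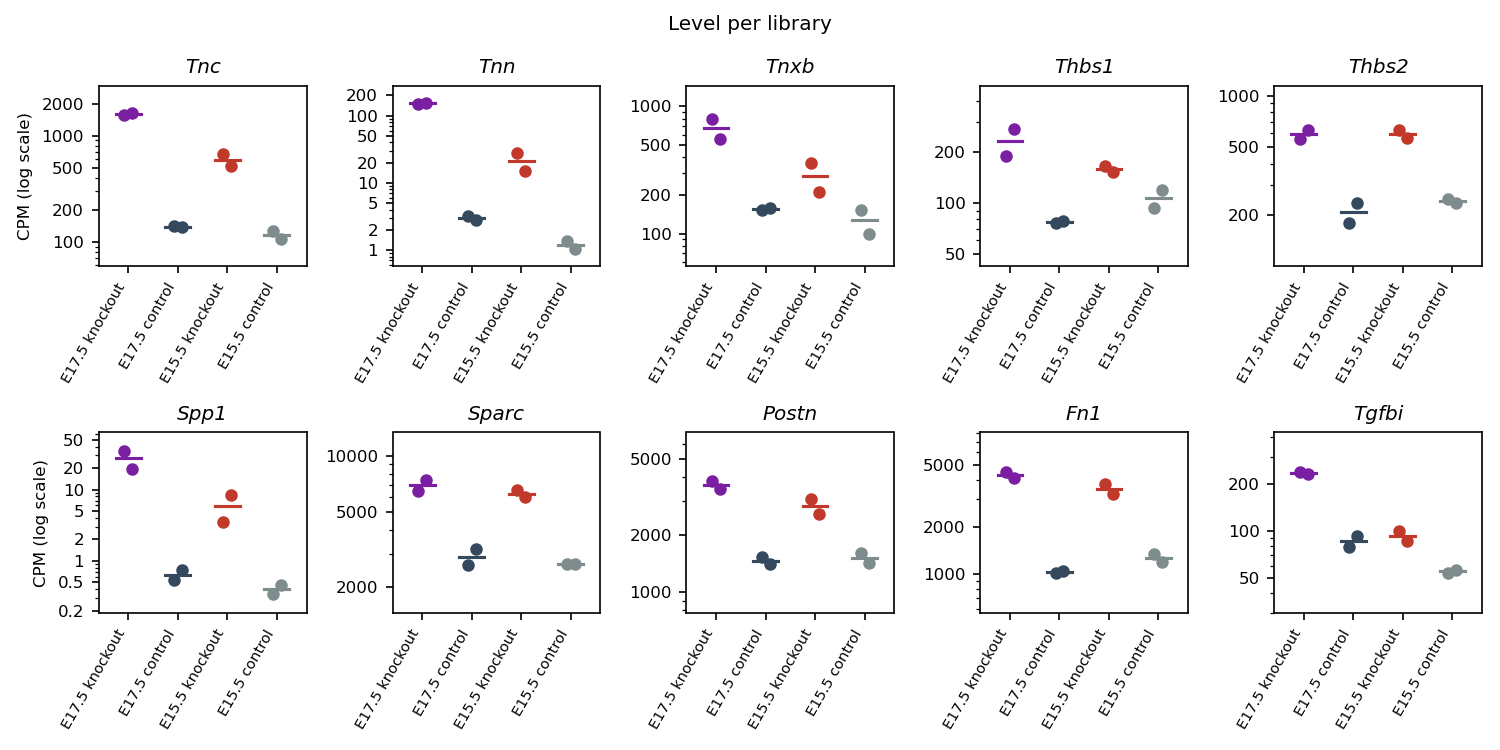
Level of each of the 10 genes in depth-scaled counts (CPM, log axis, a separate scale for each gene) in E17.5 knockout, E17.5 control, E15.5 knockout and E15.5 control libraries. Points are libraries and bars are means of 2. At each stage both knockout libraries lie above both control libraries for all 10 genes, with the widest gap for Tnn and Spp1. The share of all tested genes with such a separation was not counted.

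The thrombospondins are trimeric proteins that restrain blood vessel growth through Cd36 and Cd47. Thbs1 (chr2:118111876-118127133) encodes thrombospondin-1, which is also known to activate latent TGF-beta. It was at 189.8 and 272 CPM in E17.5 knockout libraries, against 76.1 and 78.2 CPM in E17.5 controls. At E15.5 it was at 165 and 152 CPM in knockout libraries, against 93.3 and 119 CPM in controls. The groups did not overlap, and the gap at E15.5 was the narrowest of the 10 genes. It changed by 1.58 ± 0.16 on the log2 scale at E17.5 (adjusted p = 1.07e-05) and 0.58 ± 0.16 at E15.5 (adjusted p = 0.0126). Leaving out E15.5 control replicate 1 (0.41, adjusted p = 0.120) or E15.5 knockout replicate 1 (0.51, adjusted p = 0.0682) ended the E15.5 call, which leaves 9 of 10 genes called at that stage. Exons of Thbs1 share 208 bases with a non-coding transcript of the opposite strand.

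Thbs2 (chr17:14665500-14694262) encodes thrombospondin-2, which is needed for regular collagen fibrils in mouse skin. It was at 556 and 628 CPM in E17.5 knockout libraries, against 181 and 234 CPM in E17.5 controls. In E15.5 knockout libraries it was at 632 and 566 CPM, and in E15.5 controls at 248 and 236 CPM. Its knockout levels at the 2 stages overlapped. The log2 fold change was 1.51 ± 0.14 at E17.5 (adjusted p = 4.56e-06) and 1.31 ± 0.14 at E15.5 (adjusted p = 1.88e-05).

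Spp1 (chr5:104435111-104441053) encodes osteopontin, a secreted phosphoprotein of bone and of activated macrophages that binds integrins and Cd44. It had 957 and 542 counts in E17.5 knockout libraries (34.9 and 19.5 CPM), against 15 and 23 counts in E17.5 controls (0.54 and 0.74 CPM). At E15.5 it had 96 and 236 counts in knockout libraries (3.55 and 8.30 CPM), against 9 and 12 counts in controls (0.34 and 0.46 CPM). The groups did not overlap, and of the 10 genes Spp1 varied most between knockout replicates, by a ratio of 1.79 among E17.5 knockout and 2.34 among E15.5 knockout libraries. The difference was 41.9-fold at E17.5 (log2 5.39 ± 0.46, adjusted p = 2.19e-06) and 14.7-fold at E15.5 (3.88 ± 0.52, adjusted p = 0.000103). Without E15.5 knockout replicate 2 the E15.5 log2 value was 3.14 (adjusted p = 0.000334). Part of the Spp1 exons, 309 bases, is shared with an uncharacterised transcript on the same strand.

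Spp1 belongs to a cluster of bone and tooth phosphoprotein genes on chromosome 5, and its neighbours there differed from one another. Ibsp (chr5:104299287-104311472), bone sialoprotein, had 2 and 2 counts in E17.5 knockout libraries against 82 and 102 in E17.5 controls. At E15.5 it had 1 and 3 counts in knockout libraries against 151 and 136 in controls. Ibsp fell at both stages (log2 fold change -5.35 ± 0.46 at E17.5, adjusted p = 2.39e-06, and -6.16 ± 0.44 at E15.5, adjusted p = 9.49e-07). Dmp1 (chr5:104197575-104214102), a matrix protein of dentin and bone, had 24 and 37 counts in E17.5 knockout libraries against 0 and 6 in E17.5 controls. At E15.5 it had 44 and 19 counts in knockout libraries against 9 and 5 in controls. Dmp1 rose at both stages, at these low counts (3.39 ± 0.85 at E17.5, adjusted p = 0.00565, and 2.09 ± 0.74 at E15.5, adjusted p = 0.0385). Mepe (chr5:104325329-104338611), another bone phosphoprotein gene, had no count in any library. Dmp1 and Mepe are named for their position and were picked after their values were seen.

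Sparc, Postn and Fn1 were the most abundant of the 10 genes. Sparc (chr11:55394159-55420080) encodes osteonectin, which binds collagen and calcium and is made by fibroblasts, bone cells and endothelium. It was at 6531 and 7410.3 CPM in E17.5 knockout libraries, against 2619 and 3173 CPM in E17.5 controls. At E15.5 it was at 6569 and 6006 CPM in knockout libraries, against 2645 and 2642 CPM in controls. All 4 knockout libraries lay above all 4 controls, and the stages overlapped within each genotype. It changed by 1.27 ± 0.15 on the log2 scale at E17.5 (adjusted p = 3.11e-05) and 1.25 ± 0.15 at E15.5 (adjusted p = 4.75e-05).

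Fn1 (chr1:71585473-71653280) encodes fibronectin, the ligand of the integrin of Itga5 and Itgb1. It was at 4461 and 4105 CPM in E17.5 knockout libraries, against 1018 and 1048 CPM in E17.5 controls. In E15.5 knockout libraries it was at 3747 and 3235 CPM, and in E15.5 controls at 1339 and 1191 CPM. The groups did not overlap, and the replicates of a group differed by ratios of 1.03 to 1.16. The log2 fold change was 2.05 ± 0.14 at E17.5 (adjusted p = 4.18e-07) and 1.46 ± 0.14 at E15.5 (adjusted p = 7.63e-06). Exons of Fn1 share 292 bases with an antisense transcript.

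Postn and Tgfbi encode proteins built of fasciclin domains, and both genes are known to be induced by TGF-beta. Postn (chr3:54359267-54391041) encodes periostin, which promotes collagen cross-linking. It was at 3819 and 3457 CPM in E17.5 knockout libraries, against 1518 and 1400.3 CPM in E17.5 controls. At E15.5 it was at 3092 and 2577 CPM in knockout libraries, against 1594 and 1421 CPM in controls. It changed by 1.32 ± 0.14 on the log2 scale at E17.5 (adjusted p = 1.57e-05) and 0.91 ± 0.14 at E15.5 (adjusted p = 0.000324). All knockout libraries lay above all controls.

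Tgfbi (chr13:56609586-56639359) encodes a collagen-binding adhesion protein, also called big-h3. It was at 238 and 230.2 CPM in E17.5 knockout libraries, against 79.2 and 92.2 CPM in E17.5 controls. In E15.5 knockout libraries it was at 100.5 and 86.1 CPM, and in E15.5 controls at 53.9 and 56.3 CPM. The groups did not overlap within a stage, while the E15.5 knockout and E17.5 control libraries did. The log2 fold change was 1.45 ± 0.11 at E17.5 (adjusted p = 9.56e-07) and 0.76 ± 0.11 at E15.5 (adjusted p = 0.000194).

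**Figure D2:**
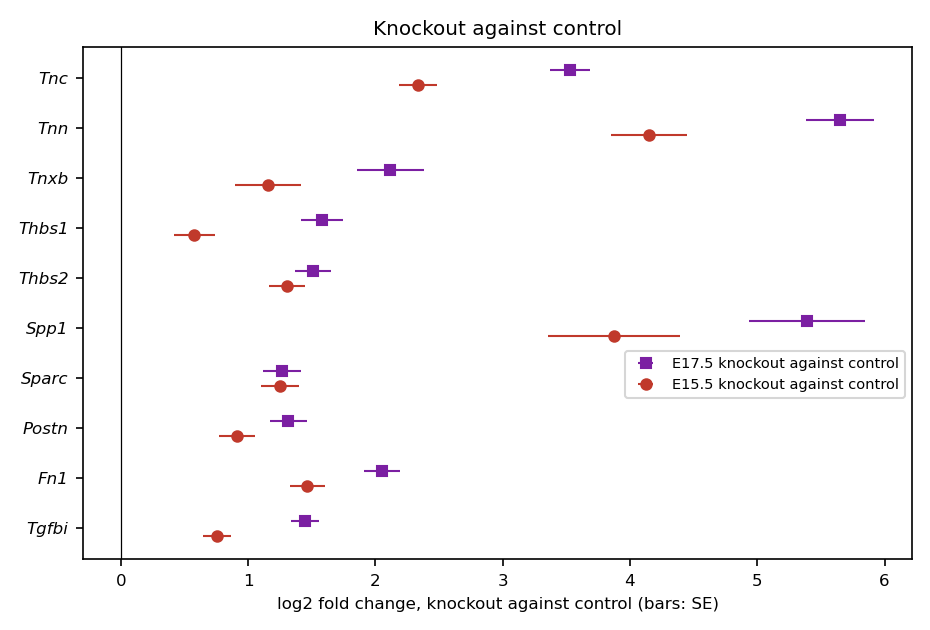
Log2 fold change of the 10 genes, knockout against control, at E17.5 (squares) and E15.5 (circles). Bars are standard errors from the edgeR fit, and filled symbols passed the adjusted threshold of 0.05, as all did. Tnn and Spp1 lie farthest right, and every E17.5 value lies right of its E15.5 value, by 0.02 for Sparc.

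The knockout effect was larger at E17.5 than at E15.5 for 3 of the 10 genes by a test of the difference itself, and smaller for none. Over all tested genes, 1.88% had a larger value in this sense and 2.47% a smaller one. These 308 and 403 genes became 122 and 255 without E15.5 knockout replicate 2, the fewest with 1 library left out. At least 1 of both counts also moved by over 1.5 times without either E15.5 control, E15.5 knockout replicate 1, E17.5 control replicate 2 or E17.5 knockout replicate 1. The difference of the log2 effects, E17.5 minus E15.5, was 1.19 ± 0.20 for Tnc (adjusted p = 0.00694), 1.01 ± 0.23 for Thbs1 (adjusted p = 0.0301) and 0.69 ± 0.15 for Tgfbi (adjusted p = 0.0293). The call of Tnc was kept in each of the 17 alternatives tried (0.98 to 1.38). Those of Thbs1 and Tgfbi were not. The Thbs1 call did not hold with any of these left out: E15.5 control replicate 2, either E15.5 knockout library, either E17.5 control library or E17.5 knockout replicate 2 (0.71 to 1.05, adjusted p = 0.0571 to 0.122). The Tgfbi call was lost without either E15.5 control library, E15.5 knockout replicate 2, E17.5 control replicate 1 or either E17.5 knockout library (0.56 to 0.72, adjusted p = 0.0696 to 0.131). With library totals in place of TMM scaling Thbs1 and Tgfbi were not called either (0.79, adjusted p = 0.0637, and 0.48, adjusted p = 0.0988).

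For the other 7 genes the difference between the stages did not pass the threshold. It was 1.498 ± 0.43 for Tnn (adjusted p = 0.0807), 1.51 ± 0.80 for Spp1 (adjusted p = 0.368) and 0.96 ± 0.36 for Tnxb (adjusted p = 0.182). The Tnn value was called by DESeq2 (adjusted p = 0.00150), with replicate number as a block (adjusted p = 0.0378), without a filter on low counts (adjusted p = 0.0356) and without E15.5 knockout replicate 1 (adjusted p = 0.00167). It was 0.59 ± 0.19 for Fn1 (adjusted p = 0.125), which DESeq2 called (adjusted p = 0.00884), and 0.41 ± 0.20 for Postn (adjusted p = 0.324). The smallest values were those of Thbs2, 0.21 ± 0.19, and of Sparc, 0.02 ± 0.21.

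The stages were also compared within each genotype. Between E17.5 and E15.5 knockout epidermis 6 of the 10 rose and none fell, where 6.19% of all tested genes rose and 6.92% fell. These 1012 and 1130 genes became 459 and 733 without E15.5 knockout replicate 2, and 451 and 709 without E17.5 knockout replicate 1. The 6 were Tnn (log2 fold change 2.83 ± 0.22), Spp1 (2.19 ± 0.35), Tnc (1.44 ± 0.14), Tgfbi (1.33 ± 0.11), Tnxb (1.26 ± 0.26, adjusted p = 0.00691) and Thbs1 (0.54 ± 0.16, adjusted p = 0.0453). Without E15.5 knockout replicate 2 the Spp1 value was 2.93, and the Tnxb call was lost (0.92, adjusted p = 0.0669). The Tnxb call was also lost without E17.5 knockout replicate 1 (0.96, adjusted p = 0.0684). The Thbs1 call was lost without either E15.5 knockout library, either E17.5 control library or E17.5 knockout replicate 2 (0.26 to 0.60, adjusted p = 0.0541 to 0.387), with counts summed over transcripts (0.54, adjusted p = 0.0547) and with the 4 knockout libraries alone (0.55, adjusted p = 0.0509).

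Between E17.5 and E15.5 control epidermis 2 of the 10 rose and none fell, where 3.16% of all tested genes rose and 7.7% fell. These 517 and 1259 genes became 301 and 927 without E15.5 control replicate 1, 176 and 490 without E15.5 control replicate 2, and 186 and 511 without E17.5 control replicate 2. Tgfbi rose by 0.64 ± 0.11 on the log2 scale (adjusted p = 0.00349) and Tnn by 1.33 ± 0.35 (adjusted p = 0.0315). The Tnn call was lost without any 1 of the 4 control libraries (1.15 to 1.54, adjusted p = 0.0883 to 0.222) and with limma-voom (1.32, adjusted p = 0.194). Thbs1 had -0.46 ± 0.16 (adjusted p = 0.103), which DESeq2 called as a fall (adjusted p = 0.0416), as the fit without E17.5 knockout replicate 2 did (-0.45, adjusted p = 0.0464). Fn1 had -0.29 ± 0.14 (adjusted p = 0.228). These comparisons share libraries with those of the knockout, so they are not separate evidence.

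Levels can be compared between genes only per length, here as CPM per kilobase of the longest GENCODE transcript matched to the counted RefSeq one. In E17.5 knockout epidermis Sparc was at 3031 ± 270.2 (SD, n = 2), Postn at 1135 ± 79.9, Fn1 at 515 ± 30.3, Tnc at 225 ± 6.57 and Thbs2 at 100.4 ± 8.73 CPM per kilobase. Below them came Tgfbi at 86.2 ± 1.91, Tnxb at 72.3 ± 18.6, Thbs1 at 39.5 ± 9.95, Tnn at 26.1 ± 0.34 and Spp1 at 19.3 ± 7.75. Only Tgfbi and Tnxb overlapped as neighbours in that order. In E17.5 controls the order opened alike, with Sparc at 1259 ± 170.4, Postn at 455 ± 26.0 and Fn1 at 124 ± 2.62, but Tnc stood sixth at 19.5 ± 0.33. Tnn at 0.52 ± 0.057 and Spp1 at 0.45 ± 0.098 closed it and overlapped.

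At E15.5 the same 3 genes led. In knockout epidermis Sparc was at 2734 ± 173, Postn at 884 ± 114, Fn1 at 419.8 ± 43.5 and Tnc, in the fifth place, at 83.1 ± 15.4 CPM per kilobase. In controls Sparc was at 1149 ± 1.10, Postn at 470.4 ± 38.1, Fn1 at 152 ± 12.6 and Tnc, in the seventh place, at 16.4 ± 2.07. Among the E15.5 controls Tgfbi overlapped Thbs1, Thbs1 overlapped Tnc, and Tnc overlapped Tnxb. Of the summed CPM of the 10 genes, Tnc made up 8.52 and 8.83% in E17.5 knockout libraries and 2.42 and 2.16% in E17.5 controls. Sparc made up 35.6 and 40.1% in E17.5 knockout libraries and 45.2 and 50.2% in E17.5 controls.

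Scaling the libraries by the 14 fibroblast markers, in place of TMM, gives a second quantity: the log2 difference of a gene relative to the mean of those markers. With TMM the markers themselves changed by 0.32 to 2.00 at E17.5 and by 0.66 to 1.56 at E15.5. A gene level with their mean therefore rose more than some of them. In E17.5 knockout epidermis 5 of the 10 genes were higher relative to the markers, none was lower and 5 did not pass the test, where 3.32% of all tested genes were higher and 78.6% were lower. Tnn was higher by 4.34 ± 0.26 (adjusted p = 1.32e-08), Spp1 by 4.11 ± 0.47 (adjusted p = 2.79e-06) and Tnc by 2.22 ± 0.17 (adjusted p = 1.05e-07). Tnxb, at 0.82 ± 0.25 (adjusted p = 0.00866), and Fn1, at 0.75 ± 0.15 (adjusted p = 0.000527), were the other two. The Tnxb call was lost without E17.5 knockout replicate 1 (0.49, adjusted p = 0.111). Thbs1 had 0.27 ± 0.17, Thbs2 0.22 ± 0.14, Tgfbi 0.15 ± 0.13, Postn 0.01 ± 0.17 and Sparc -0.03 ± 0.14, none of them called. With the fibrillar collagens left out of the marker set 8 genes were called higher at E17.5, since Thbs1 (0.51), Thbs2 (0.46) and Tgfbi (0.39) then passed as well. In that setting 849 of all tested genes were higher, against 543 with the full marker set. Thbs1 also passed without E17.5 knockout replicate 1 (0.48, adjusted p = 0.0397).

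In E15.5 knockout epidermis 3 of the 10 genes were higher relative to the fibroblast markers and 2 were lower, where 1.77% of all tested genes were higher and 77.2% were lower. The higher ones were again Tnn (2.98 ± 0.28, adjusted p = 9.41e-07), Spp1 (2.75 ± 0.54, adjusted p = 0.000356) and Tnc (1.17 ± 0.16, adjusted p = 1.83e-05). Without E15.5 knockout replicate 2 the Spp1 value was 1.91. The lower ones were Thbs1 (-0.58 ± 0.17, adjusted p = 0.00623) and Tgfbi (-0.40 ± 0.13, adjusted p = 0.0106). Leaving out E15.5 control replicate 2 ended the Thbs1 call (-0.42, adjusted p = 0.0881). The Tgfbi call was lost without that library (-0.39, adjusted p = 0.0530), without E15.5 knockout replicate 2 (-0.37, adjusted p = 0.0625) and without the collagens (-0.28, adjusted p = 0.0609). Fn1 had 0.30 ± 0.15, Thbs2 0.15 ± 0.14, Sparc 0.09 ± 0.14, Tnxb -0.02 ± 0.25 and Postn -0.25 ± 0.17, none of them called, although Fn1 was called without the collagens (0.43, adjusted p = 0.0265).

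**Figure D3:**
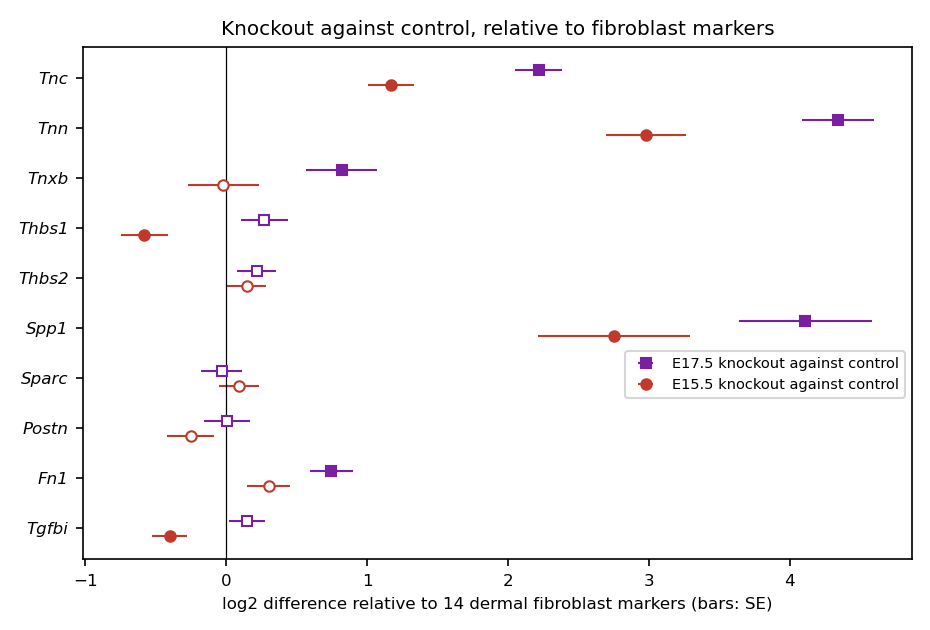
Log2 difference of the 10 genes, knockout against control, relative to 14 dermal fibroblast markers, at E17.5 (squares) and E15.5 (circles). Bars are standard errors and open symbols did not pass the adjusted threshold of 0.05. Tnn, Spp1 and Tnc stand right of 0 at both stages, while Sparc, Postn and Thbs2 lie within 0.26 of it.

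The genes whose levels followed each member most closely over the 8 libraries are given next. Likeness was measured as the Euclidean distance between mean-centred log2 CPM values, over 13573 genes, and is a description, since all libraries share the genotype contrast. Nearest to Sparc were Col6a1 (distance 0.15), Dact1 (0.17) and Col6a2 (0.18). Those of Fn1 were Sdk1, Col5a1 and Col1a1 (0.22 to 0.31), and those of Thbs2 were Rcn3, Fkbp10 and P3h1 (0.17 to 0.26), of which Fkbp10 and P3h1 act in collagen folding in the endoplasmic reticulum. Postn lay nearest to Tns1, Rian and Svil (0.20 to 0.22).

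Nearest to Tnxb were Cd163 (0.51), Hk3 (0.55) and C1qc (0.60), of which Cd163 is a scavenger receptor of macrophages and C1qc a complement subunit. Nearest to Tnc was Siglec1 (0.74), a sialic acid receptor of macrophages, followed by Aldh1a3 and Slfn1. Spp1 lay nearest to the chemokine genes Ccl2 (1.59) and Ccl9 (1.96) and to Slfn4 (1.96). For Tnn the nearest were Ccl9, Ccl2 and Nfasc (2.52 to 2.75), the largest distances of the 10 genes. Thbs1 lay nearest to Atf3 (0.39), a stress-induced transcription factor, and Il15ra (0.42), and Tgfbi to H2-Q4, C1s1 and Cmpk2 (0.34 to 0.37).

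Relatives of the 10 genes changed in both directions. Of 23 listed matricellular relatives 21 could be tested, and 13 rose and 4 fell at E17.5 (median log2 fold change 1.19), while 14 rose and 5 fell at E15.5 (median 1.08). Thbs4, a thrombospondin of tendon and muscle, was at 47.6 and 56.1 CPM in E17.5 knockout libraries against 7.25 and 10.5 CPM in E17.5 controls (2.54 ± 0.20, adjusted p = 1.02e-06). Spock2, a secreted proteoglycan of the Sparc family, rose by 1.47 ± 0.15 at E17.5 and by 1.33 ± 0.15 at E15.5. Smoc1, another relative of Sparc, lies in basement membranes. It fell to 4.60 and 3.27 CPM in E17.5 knockout libraries, against 31.996 and 42.4 CPM in E17.5 controls (-3.24 ± 0.20, adjusted p = 1.78e-07). At E15.5 it was at 3.55 and 3.31 CPM in knockout libraries, against 16.7 and 19.0 CPM in controls (-2.38 ± 0.20, adjusted p = 3.54e-06).

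Of 17 cell-surface receptors of these proteins, 11 rose and 3 fell at E17.5 (median 0.75), and 12 rose and 2 fell at E15.5 (median 0.75). Itgb3, the partner of integrin alpha v that binds Spp1, Fn1 and Thbs1, was at 63.1 and 64.7 CPM in E17.5 knockout libraries against 18.7 and 19.9 CPM in E17.5 controls (1.73 ± 0.13, adjusted p = 9.81e-07). Itga9, an integrin chain that binds Tnc and Spp1, rose by 1.20 ± 0.10 at E17.5 and by 0.97 ± 0.10 at E15.5. Stab1, a scavenger receptor of macrophages that takes up Sparc, rose by 1.70 ± 0.13 at E17.5 and by 0.74 ± 0.12 at E15.5. Sdc1, syndecan-1, a heparan sulfate proteoglycan of keratinocytes that binds Fn1 and Tnc, fell to 56.9 and 62.2 CPM in E17.5 knockout libraries, against 200.2 and 187 CPM in E17.5 controls (-1.70 ± 0.10, adjusted p = 1.00e-07). At E15.5 Sdc1 changed by -1.60 ± 0.10 (adjusted p = 2.55e-07).

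TGF-beta is known to raise Postn, Tgfbi and Fn1 in fibroblasts. Of 16 listed genes of its pathway, 7 rose and 1 fell at E17.5 (median 0.22), and 8 rose and 2 fell at E15.5 (median 0.31). The shares of all tested genes were 26.7% risen and 26.7% fallen at E17.5, and 23.2% and 22.3% at E15.5. Ltbp2, a relative of the latent TGF-beta binding proteins that lies on microfibrils, rose by 1.92 ± 0.13 at E17.5 (adjusted p = 4.17e-07) and by 1.62 ± 0.13 at E15.5 (adjusted p = 2.44e-06). The receptor genes Tgfbr2 (0.97 ± 0.10 and 0.88 ± 0.10) and Tgfbr3 (1.52 ± 0.13 and 1.04 ± 0.13) rose at E17.5 and at E15.5.

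**Figure D4:**
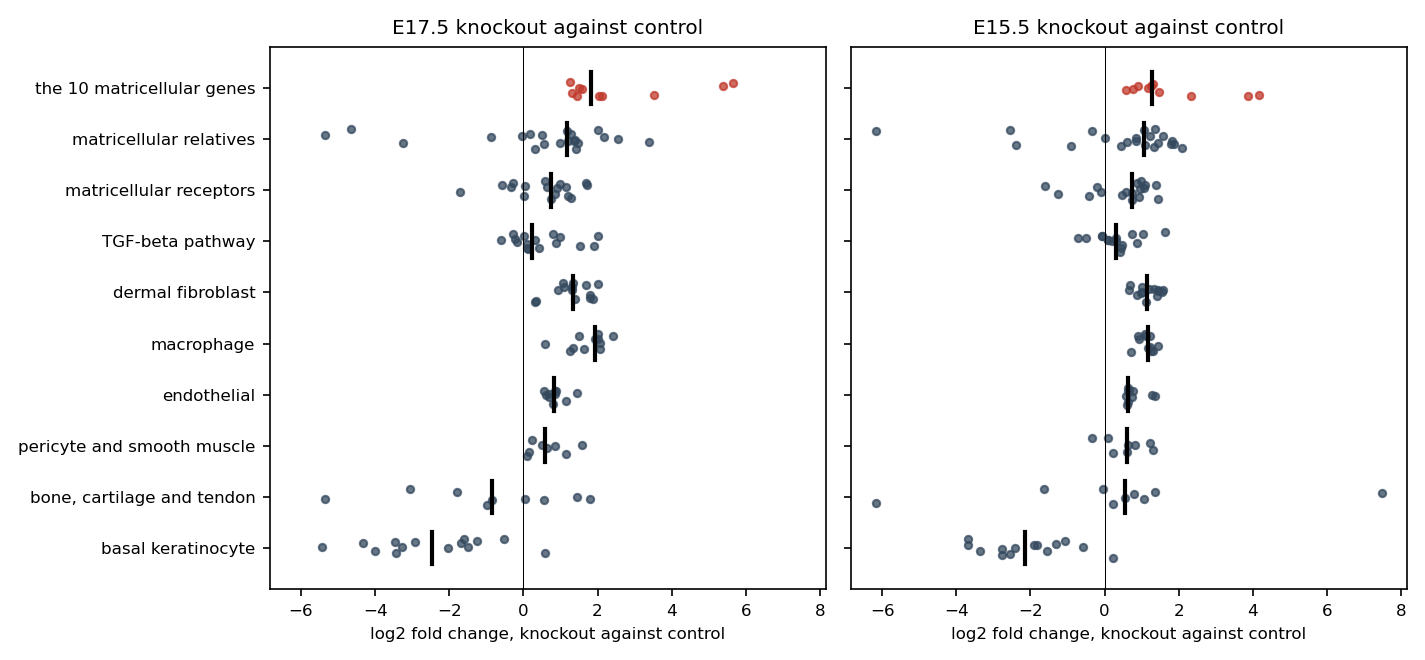
Log2 fold change, knockout against control, of each tested gene at E17.5 (left) and E15.5 (right), for the 10 matricellular genes (top) and 9 other gene lists. Points are genes and thick lines are medians of a list. The 10 genes have medians of 1.82 at E17.5 and 1.28 at E15.5, beside 1.33 and 1.15 for dermal fibroblast and 1.93 and 1.17 for macrophage markers.

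Counts for markers of further cell types follow. Over all tested genes 26.7% rose and 26.7% fell at E17.5, and 23.2% rose and 22.3% fell at E15.5. Of 10 endothelial markers all rose at both stages, with medians of 0.82 at E17.5 and 0.64 at E15.5. Of 8 pericyte and smooth muscle markers 5 rose and none fell at E17.5, and 4 rose and 1 fell at E15.5. Of 9 bone, cartilage and tendon markers 1 rose and 5 fell at E17.5, and 3 rose and 2 fell at E15.5. Of 8 erythroid markers 6 rose at E17.5 (median 3.20) and 8 at E15.5 (median 2.75). Of 8 skeletal muscle markers 8 rose at E17.5 (median 1.41) and 6 at E15.5 (median 0.67). Of 8 stress and periderm keratins 7 rose and 1 fell at each stage, with medians of 4.07 at E17.5 and 2.61 at E15.5. Of 6 Schwann cell markers 5 rose and 1 fell at E17.5 and 4 rose and 1 fell at E15.5, and of 7 melanocyte markers 2 rose at E17.5 and 6 at E15.5. Macrophage markers summed to 1779 and 1570.1 CPM in E17.5 knockout libraries against 462 and 459 CPM in E17.5 controls, and the knockout effect was larger at E17.5 than at E15.5 for 4 of 11. The part of these cell types in the values of the 10 genes was not tested.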

How the data were processed

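Gene counts from 8 mouse libraries were used as deposited by the authors, as raw counts per RefSeq transcript. Per the series design text and the submitters' processing notes, reads were aligned to mm10 with TopHat version 2 and counted with HOMER. HOMER's version and strand setting are not given in these sources. Names came from RefSeq (29908 of 30521 transcripts) and GENCODE M21 (182). The 431 unnamed transcripts, holding 2.079% of counts, were left out. The transcript with the largest total stood for a gene. Both joined tables of the series were not used here.

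edgeR 4.0.16 (R 4.3.3) was fitted with TMM factors and 1 mean per group over all 8 libraries, after its expression filter, and tested on simulated data. Each SE was derived from the fold change and its F statistic (log2 fold change over the root of F). Promoter sequences and coordinates are RefSeq's (GRCm38.p6). DESeq2 1.42.0 and limma 3.58.1 served as alternatives. The members and lists were chosen with earlier results of these data known. Except where stated, genes described from a list are among the up to 3 called ones with the smallest adjusted p at each stage. Not all of these are named. The TGF-beta pathway genes that fell are named as well. For each member the 3 genes nearest to it are named, passing over loci known only by a number. Same-numbered replicates did not deviate together (r = -0.07 to 0.04), so no block was used.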

Additional observations from a re-analysis of the deposited data

Results flagged for a closer look

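The knockout effect differed between the stages for 3 of the 10 genes by the test of the difference. The difference of log2 effects, E17.5 minus E15.5, was 1.19 for Tnc, 1.01 for Thbs1 and 0.69 for Tgfbi (edgeR adjusted p = 0.00694, 0.0301 and 0.0293). Only the Tnc call was kept in each of the 17 alternatives. Those of Thbs1 and Tgfbi were each kept in 10 of them. For Tnc and Tgfbi the knockout level was higher at E17.5 than at E15.5 in every library. The control levels of both were higher at E17.5 as well. The log2 difference between control stages was 0.64 ± 0.11 for Tgfbi (edgeR adjusted p = 0.00349) and 0.25 ± 0.14 for Tnc (adjusted p = 0.355). For Thbs1 both E17.5 knockout libraries lay above both E15.5 ones, while both E17.5 controls lay below both E15.5 controls. Over all tested genes 1.88% had a higher log2 effect at E17.5 and 2.47% a lower one. It was higher for 4 of 11 macrophage markers, 3 of 8 stress and periderm keratins and 2 of 8 skeletal muscle markers. The same held for 1 of 14 basal keratinocyte markers and none of 14 dermal fibroblast markers. It was lower for 5 of 11 suprabasal and 3 of 14 basal keratinocyte markers and 4 of 7 melanocyte markers. The same held for 3 of 9 bone, cartilage and tendon markers and 1 of 8 stress and periderm keratins. The part of these cell types in the values of the 3 genes was not tested.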

How the results depend on the processing

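All 10 genes were called higher in the knockout at E17.5 under each of 18 alternatives, and at E15.5 under 16, with 9 called in the other two. Of 1130 recomputed values of single genes, 1059 kept direction and side of the threshold, 13 gained a call, 35 lost one and 23 changed sign, all of these uncalled. The cause was not tested. Replicate number as a block added only Tnn to the genes with a larger effect at E17.5 (1.54), giving 4.

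The count with a larger effect at E17.5 was 1 with library totals and 5 with DESeq2, and 1 to 3 when 1 library was left out. Between control stages, limma-voom called 1 riser, DESeq2 1 faller, and leaving out 1 library gave 1 to 2 risers and 0 to 1 fallers. Without the collagens among the fibroblast markers 1 gene was lower at E15.5 and 8 were higher at E17.5. In that setting 12032 of all tested genes were lower at E15.5 and 849 were higher at E17.5. Leaving out 1 library gave 0 to 2 lower at E15.5.

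With library totals the median of all genes was -0.23 at E17.5, against -0.02 with TMM (3295 rose and 6284 fell, against 4371 and 4365). It was -0.21 for the stage difference, against 0.01 (142 and 655, against 308 and 403), and 0.19 between control stages, against -0.0047 (1486 and 762, against 517 and 1259). DESeq2 gave 507 and 494 for the stage difference. Upper quartile factors gave 4412 and 2965 at E15.5, against 3792 and 3639.

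Sign changes in the stage difference were those of Thbs2 (library totals -0.0082) and Sparc (library totals -0.20, upper quartile -0.035, no filter -0.0034, 1 library left out -0.12 to 0.16). Between control stages they were those of Postn (library totals 0.14, upper quartile 0.026, 1 library left out -0.13 to 0.039) and Sparc (1 left out -0.014 to 0.26). Between knockout stages Thbs2 had 0.0054 with upper quartile factors and -0.11 to 0.062 with 1 left out. Relative to fibroblast markers, Tnxb at E15.5 had 0.12 without collagens and -0.36 to 0.35 with 1 left out. At E17.5 Postn had -0.033 with the median marker and -0.15 to 0.18 with 1 left out, and Sparc had 0.21 without collagens and -0.091 to 0.022 with 1 left out.

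With 2 libraries a group, an exact permutation test over samples cannot pass the threshold, so the calls rest on the spread shared across genes. Spp1 and Tnn rest on 9 to 90 counts in the control libraries.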
